A study of Drosophila melanogaster with 24 samples.

Results

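The dumpy gene (dp, listed as dpy in RefSeq, gene ID 318824, locus tag Dmel_CG33196) encodes a very large, membrane-anchored protein of the apical extracellular matrix, built of many EGF-like repeats with a zona pellucida domain near its end. In the Drosophila pupal wing it tethers the epithelium to the overlying cuticle, and wings that lack enough of it come out short and misshapen. The stretch studied here was a window of 170 kb on the left arm of chromosome 2, chr2L:4450000-4620000 in the coordinates of the peak lists (build dm3, from the submitters' processing notes). Every peak of the 7 deposited lists that overlapped the window was taken, and peaks that overlapped by at least 1 bp in any list were merged into regions. The window held 122 merged regions of 54832 in the whole series and of 9938 on arm 2L. Regions are named by the distance of their middle from the window start, so that the 147.4-kb region lies 147.4 kb into the window. No gene annotation of build dm3 was used, and no region was assigned to a gene. In the Release 6 gene table, dp is flanked by ine, FIG4 and Paris on the lower side and by lncRNA:CR44609 and lncRNA:CR45452 on the higher side, with HP6 and lncRNA:CR43716 listed inside its span.

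FAIRE-seq recovers DNA that is not held in nucleosomes, so that a peak marks a stretch of open chromatin such as an active enhancer or promoter. E93 (Eip93F) is a transcription factor induced by the steroid hormone ecdysone and is known for directing the change of accessible chromatin as larval tissues take on their adult form. The comparisons ask which openings of the dp locus belong to which stage of wing metamorphosis, which of them are found without E93, and which are bound by it.

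E93 mutant wings came from E93-4/Df(3R)93FX2 animals, a mutant allele over a deficiency, with 2 FAIRE replicates at each of 3 stages. Wild-type wings came from w1118/y,w, hs-FLP; + ; + animals, with 3 FAIRE replicates at the same stages. The stages were the wandering larva of the last instar (L3) and 24 h and 44 h after puparium formation, and each FAIRE sample was made from at least 40 wings of females. E93 ChIP-seq was done in 2 replicates at 24 h with an anti-GFP antibody on at least 700 wings of both sexes, from animals of genotype yw/+; + ; Mi{MIC}Eip93F/+, which carry 1 GFP-tagged E93 allele beside an untagged one. The control was genomic DNA of whole adult OregonR virgin females (1 sample). Whole wings hold several cell types besides the epithelium, and a peak carried by few cells cannot be told apart from a weak one carried by many.

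The replicates of a condition had been pooled before peaks were called, which leaves 1 list per condition, no replicate error and no test between conditions. Intervals given below are exact (Clopper-Pearson) 95% intervals and cover counting error only. The lists held 28216, 26239 and 22786 peaks for E93 mutant wings at L3, 24 h and 44 h, 39525, 29731 and 28684 for wild-type wings, and 8477 for the ChIP. The mutant lists rest on fewer reads: judged by the background level common to a list, their depth was 0.569, 0.267 and 0.192 of the wild-type depth at L3, 24 h and 44 h. A weak peak absent from a mutant list therefore cannot be told apart from one missed at lower depth. L3 values carry a doubt: the mutant list labelled L3 names its peaks after 0 h of pupal development. The wild-type one, the longest of all, names its peaks as if they were a selection. It is also the only FAIRE list whose name does not say that PCR duplicates were removed. Whether duplicates were kept in it is not known, and the part this plays in the L3 values was not tested. Because pileup, the height of a peak in stacked fragments, is not on 1 scale between lists, each peak was given its rank by pileup within its own list, written as a top percent in which a small value is a strong peak. A region took the rank of its best peak in each list. Ranks compared between lists can therefore belong to peaks that do not share a summit or do not overlap.

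The dp window was richer in peaks than arm 2L in every list. The ChIP had 18 peaks in the window, or 10.6 per 100 kb against 6.46 on 2L, a ratio of 1.64. E93 mutant wings had 54, 40 and 39 peaks over the L3, 24 h and 44 h stages, or 31.8, 23.5 and 22.9 per 100 kb against 22.2, 20.3 and 16.8 on 2L. Wild-type wings had 93, 53 and 45 peaks, or 54.7, 31.2 and 26.5 per 100 kb against 31.7, 22.8 and 21.0 on 2L. The excess over 2L was thus largest in wild-type L3 wings, with a ratio of 1.73, and smallest in mutant 24 h wings, with a ratio of 1.16.

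**Figure D1:**
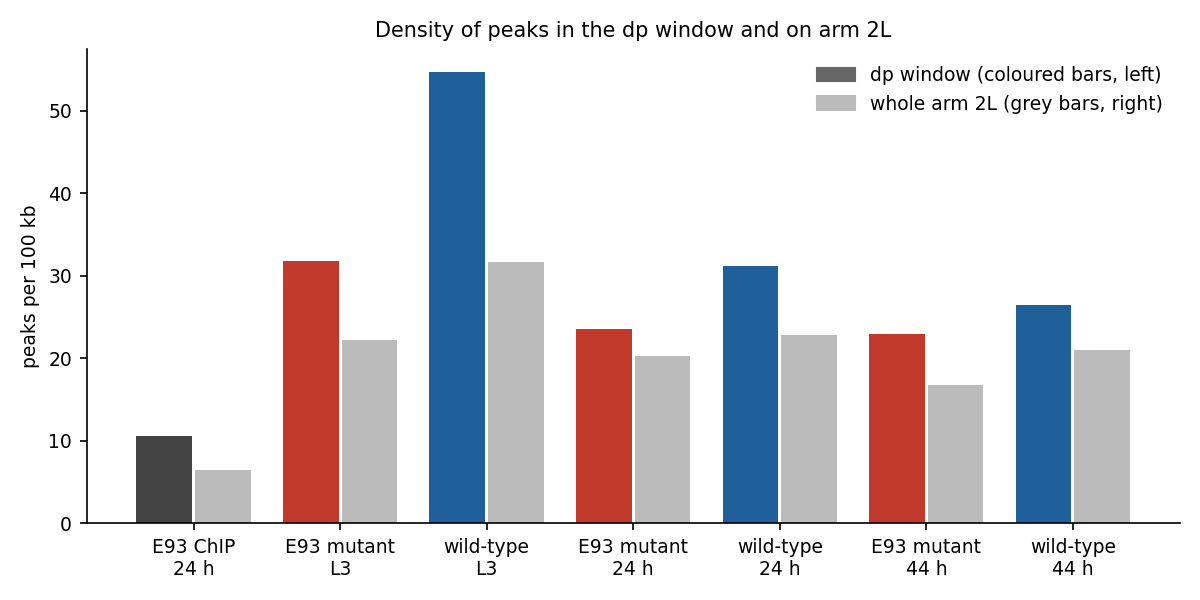
Peaks per 100 kb in the dp window (coloured bars) and on the whole of arm 2L (grey bars) for each peak list, 1 pooled list per condition and so without error bars. The dp window is above the arm in all 7 lists, with the widest gap for wild-type L3 wings at 54.7 against 31.7 per 100 kb.

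Many L3 peaks of the window were weak. A −log10 q of 10, a measure of how far a peak stands above its background, was reached in E93 mutant wings by 17 of 54 window peaks at L3 (31.5%, against 44.7% of the list), 21 of 40 at 24 h (52.5%, against 51.8%) and 24 of 39 at 44 h (61.5%, against 55.2%). In wild-type wings it was reached by 20 of the 93 L3 peaks (21.5%, against 39.6% of the list). At 24 h the share was 31 of 53 (58.5% in the window, 60.4% in the list), and at 44 h it was 26 of 45 (57.8% in the window, 62.6% in the list). The median peak of the window ranked at the top 66.5% at L3, 55.2% at 24 h and 53.6% at 44 h in wild-type wings.

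Peaks were spread unevenly over the window, with few in its middle in all lists but wild-type L3. Between 30 and 100 kb there were 8, 2 and 2 peaks in E93 mutant wings at L3, 24 h and 44 h and 27, 4 and 3 in wild-type wings. Per 100 kb this is 11.4, 2.86 and 2.86 in the mutant and 38.6, 5.71 and 4.29 in wild type. The wild-type L3 value was above the 31.7 of arm 2L. The first 30 kb held 12, 8 and 11 in mutant wings and 25, 14 and 14 in wild-type wings, or 26.7 per 100 kb in the mutant and 46.7 in wild type at 24 h. These sections were drawn after seeing the counts. All 18 ChIP peaks lay in a stretch of 49.1 kb (chr2L:4565176-4614264), from 115.2 kb to 164.3 kb into the window, which was defined by these peaks. FAIRE peaks there were dense in all lists, at 26, 27 and 25 in E93 mutant wings at L3, 24 h and 44 h and 27, 26 and 27 in wild-type wings. In the 115.2 kb before this stretch the counts were 27, 13 and 13 in mutant wings and 64, 23 and 17 in wild-type wings. Per 100 kb this is 11.3 in mutant 24 h wings and 20.0 in wild-type 24 h wings before the stretch, against 55.0 and 53.0 inside it. In the whole ChIP list 95.8% of peaks met a wild-type 24 h peak. A stretch drawn around ChIP peaks therefore holds FAIRE peaks in part by its definition, and the contrast is a description only. At L3 wild-type peaks were as dense before the stretch (55.6 per 100 kb) as inside it (55.0 per 100 kb), but they were weaker, with a median top percent of 80.2% before it against 34.6% inside it.

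**Figure D2:**
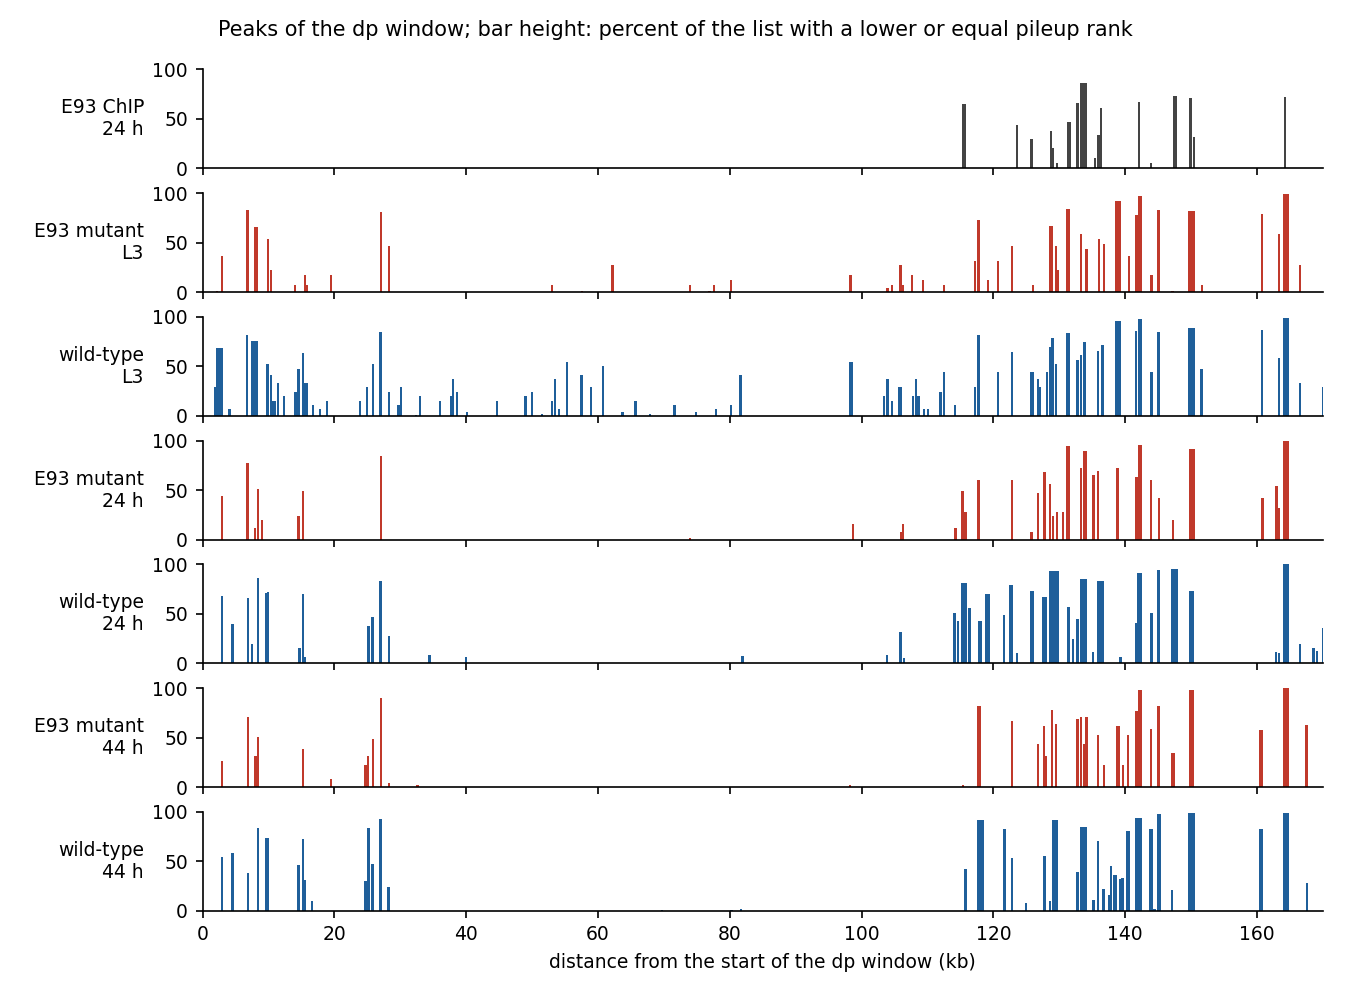
Peaks of the 7 lists along the dp window, with distance from the window start in kb on the x axis and, on the y axis, the percent of the list with a lower or equal pileup rank, so that tall bars are strong peaks. Each row is 1 pooled list. All ChIP peaks lie between 115.2 and 164.3 kb. FAIRE bars are dense there and in the first 30 kb, where the 27.1-kb region stands at the top 15.2% in mutant and 16.5% in wild-type wings at 24 h, and the stretch from 30 to 100 kb holds bars that are mainly of wild-type L3 wings.

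With all peaks counted, regions open at L3 alone were the largest class of the locus. This ranking did not hold with a −log10 q of at least 10 in every list. Only 3 regions then had a wild-type L3 peak and none at 24 h, fewer than were open at all 3 wild-type stages. Of the 122 regions, 51 had a wild-type peak at L3 only (41.8%, interval 32.9 to 51.1%), against 28% of all regions in the series. Of these 51, 46 lay before the E93-bound stretch and 5 inside it. They were weak, with ranks between the top 45.3% and 99.4% of the wild-type L3 list and a median of 80.2%. E93 mutant wings had no peak at any stage in 39 of them (76.5%, interval 62.5 to 87.2%), against 59% of such regions in the series, and a peak at L3 alone in 10 (19.6%, against 20.2%). The best rank was shared by 2 regions. One was the 55.3-kb region (chr2L:4505171-4505394), at rank 17917 of the wild-type L3 list with a pileup of 37 and a fold enrichment of 3.46 over local background, and no other list had a peak there. The other was the 98.4-kb region (chr2L:4548070-4548727), with the same wild-type rank, pileup and fold enrichment, where E93 mutant wings had weak peaks at the top 82.9%, 84.5% and 98.3% at L3, 24 h and 44 h.

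With all peaks counted, fewer regions opened for the first time in the pupa. At a −log10 q of at least 10 the balance differed, as given below peak by peak. A wild-type peak at 24 h only was found in 11 regions (9.02%, against 7.13% of the series) and at 44 h only in 8 (6.56%, against 9.85%). Peaks at L3 and 24 h but not 44 h were found in 8 regions (8.35% of the series), at L3 and 44 h but not 24 h in 5 (4.52%), and at 24 h and 44 h but not L3 in 6 (7.44%). The 24 regions with wild-type peaks at all 3 stages made up 19.7% of the window (interval 13.0 to 27.8%), against 26.9% of the series. Mutant peaks were present in every one of these 24 at 1 or more stages, and 16 regions had a peak in all 6 FAIRE lists (13.1%, against 20.3%). The 9 regions with no wild-type FAIRE peak (7.82% of the series) all rested on mutant peaks alone, none stronger than the top 71.9% of its list and none with a ChIP peak.

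Peak by peak, the share of wild-type L3 peaks that met a later peak was lower in the window than in the whole list. Of 53 wild-type 24 h peaks, 35 met an L3 peak (66.0%, interval 51.7 to 78.5%), against 70.8% of the list, while 37 of 93 L3 peaks met a 24 h peak (39.8%, interval 29.8 to 50.5%), against 52.9%. Of 45 wild-type 44 h peaks, 31 met a 24 h peak (68.9%, against 71.2%) and 31 an L3 peak (68.9%, against 65.1%), 33 of 93 at L3 met one at 44 h (35.5%, against 47.1%), and 32 of 53 at 24 h met one at 44 h (60.4%, against 69.1%). With a −log10 q of at least 10 in every list, 85.0% of L3 peaks met a 24 h peak and 75.0% a 44 h peak. Only 45.2% of 24 h peaks and 50.0% of 44 h peaks then met an L3 peak. A 44 h peak was met by 74.2% of 24 h peaks. Shares of the whole lists were not computed at this limit, so these values cannot be set against the series. Of the 13 L3 peaks among the strongest 25% of that list, 12 met a 24 h peak (93.4% of the list) and 12 met a 44 h peak (82.5%).

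The genotypes shared most mutant peaks of the locus at each stage, and fewer of the wild-type ones. At L3, 44 of 54 mutant peaks met a wild-type peak (81.5%, interval 68.6 to 90.7%), against 87.6% of the list, and 42 of 93 wild-type peaks met a mutant peak (45.2%, interval 34.8 to 55.8%), against 61.3%. At 24 h the shares were 31 of 40 mutant peaks (77.5%, against 76.4%) and 28 of 53 wild-type peaks (52.8%, interval 38.6 to 66.7%, against 65.4%). At 44 h they were 33 of 39 mutant peaks (84.6%, against 80.4%) and 29 of 45 wild-type peaks (64.4%, against 61.7%). Of the wild-type peaks with a −log10 q of at least 10, 23 of 31 at 24 h (74.2%) and 20 of 26 at 44 h (76.9%) met any mutant peak of the stage. The whole-list shares were not computed at this limit, so whether the locus differs from the series there is not known. In the strongest 25% of a list by pileup, where the shares of the whole lists were also high, all 7 mutant 24 h peaks met a wild-type 24 h peak (99.1% of the list), and all 11 wild-type 24 h peaks met a mutant 24 h peak (96.4%). The same held for all 10 mutant peaks (100% of the list) and all 13 wild-type peaks (99.6%) at L3, and for all 8 mutant peaks (99.3%) and 13 of 14 wild-type peaks (95.8%) at 44 h.

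Whether openings of the pupal wing appeared without E93 was followed region by region. A mutant 24 h peak was present in 4 of the 17 regions with a wild-type 24 h peak and none at L3 (23.5%, interval 6.81 to 49.9%), against 24.3% of the series. Of the 6 regions with a mutant 24 h peak and no wild-type one, 3 had been open at L3 in wild type (50.0%, against 66.2% of the series). A mutant 24 h peak was also present in 24 of the 32 with wild-type peaks at both stages (75.0%, interval 56.6 to 88.5%), against 83%. The 56 regions with a wild-type L3 peak and none at 24 h are called closed here, though 5 of them had a wild-type peak again at 44 h. The mutant had a 24 h peak in 3 of the 56 (5.36%, interval 1.12 to 14.9%), against 20.3% of the series. This share depended on the length of the lists. With equal list sizes it was 5 of 16 (31.3%, interval 11.0 to 58.7%), against 36.2% of the series, and with peaks of −log10 q of at least 10 it was 1 of 3, against 29.2%. At 44 h the mutant had a peak in 6 of 14 regions with a wild-type 44 h peak and none at L3 (42.9%, interval 17.7 to 71.1%), against 28.1%.

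E93 was bound at 14 of the 122 regions (11.5%, interval 6.42 to 18.5%), against 13.6% of the series, and every bound region held a wild-type peak at the stage of the ChIP. All 14 had a wild-type 24 h peak (95.9% of bound regions in the series). Of the 14, 10 had a mutant L3 peak (78.7%), 12 a mutant 24 h peak (87.5%) and 10 a mutant 44 h peak (80.9%), beside 10 with a wild-type L3 peak (82.8%) and 11 with a wild-type 44 h peak (78.4%). Most bound regions of the locus thus had a peak in E93 mutant wings too, as did most bound regions of the series. Weak mutant peaks are included in these counts. Counted by single ChIP peaks, 12, 15 and 12 of the 18 met a mutant peak at L3, 24 h and 44 h (76.9%, 86.2% and 78.8% of the list), and 14, 17 and 12 met a wild-type one (80.7%, 95.8% and 75.9%). The 18 ChIP summits lay 26 to 687 bp from the nearest mutant 24 h summit (median 182 bp) and 12 to 676 bp from the nearest wild-type 24 h summit (median 152.5 bp). Bound regions included 6 of 14 with a FAIRE peak in the top 10% of any list (48.5% in the series), and unbound ones 4 of 108 (5.34% in the series).

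Counted from the side of open chromatin, 16 of 40 mutant 24 h peaks met a ChIP peak (40.0%, interval 24.9 to 56.7%), against 26.7% of the list, and 13 of 53 wild-type 24 h peaks did (24.5%, interval 13.8 to 38.3%), against 25.7%. These counts are of peaks and not of regions: in the 129.2-kb region, E93 mutant wings had 3 peaks at 24 h where wild-type wings had 1. E93 was bound in 4 of the 17 regions with a wild-type 24 h peak and none at L3 (23.5%, interval 6.81 to 49.9%), against 13.4% of the series. It was bound in 8 of the 24 regions open at all 3 wild-type stages (33.3%, interval 15.6 to 55.3%), against 34.7%.

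Ranks of the ChIP peaks were moderate. The best, in the 133.6-kb region (chr2L:4583096-4584195), was 1192nd of 8477 (top 14.1%), with a pileup of 61.1 and a fold enrichment of 4.78, and no ChIP peak of the window reached the top 10% of its list. Around it the chromatin was open in all 6 FAIRE lists, at the top 41.1%, 10.4% and 29.1% in E93 mutant wings at L3, 24 h and 44 h and the top 25.6%, 15.3% and 15.1% in wild-type wings. The most strongly bound region of the locus thus ranked a little higher in the mutant than in wild type at 24 h, and lower at the other stages. In the series, 16.0% of bound regions ranked higher in the mutant at L3 and 51.8% at 44 h.

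The 147.4-kb region (chr2L:4596938-4597939) was the bound region with the widest gap between genotypes at 24 h. Its ChIP peak was the second of the window by pileup, at rank 2263 (top 26.7%) with a pileup of 49.3. By fold enrichment, at 3.59, several other bound regions stood above the 147.4-kb region. In E93 mutant wings the region ranked at the top 98.6% at L3, 80.1% at 24 h and 65.2% at 44 h (pileups of 15, 19 and 18). Wild-type wings had no peak there at L3, and it ranked at the top 4.88% at 24 h (rank 1450, pileup 113, fold enrichment 9.85) and at the top 79.0% at 44 h (pileup 33.5). The strong opening was seen in 1 list only, wild-type 24 h, while weak peaks were called at all 3 stages in the mutant.

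Another bound region of this kind was the 125.8-kb region (chr2L:4575531-4576129), where the ChIP peak ranked at the top 70.4%. E93 mutant wings had weak peaks at the top 92.4% at L3 and 92.6% at 24 h and none at 44 h. Wild-type wings had peaks at the top 55.6% at L3 and 27.3% at 24 h (pileup 77.0, fold enrichment 6.43) and none at 44 h. The 115.5-kb region (chr2L:4565071-4566010), with a ChIP peak at the top 35.5%, likewise ranked lower in the mutant at 24 h, at the top 51.3% against 18.8% in wild-type wings. The mutant 24 h peak nearest the wild-type summit stood at the top 71.9%. The region had no L3 peak in either genotype. At 44 h it stood at the top 98.3% in mutant wings and 57.6% in wild-type wings, in peaks that did not overlap. The 123.5-kb region (chr2L:4573412-4573613) had no mutant peak at any stage, but its wild-type 24 h peak was near the end of the list (top 90.0%, pileup 28.4), with a ChIP peak at the top 56.4%.

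Other bound regions stood the other way round. In the 131.4-kb region (chr2L:4580981-4581796), with a ChIP peak at the top 53.0%, mutant wings ranked at the top 15.7% at L3 and 5.40% at 24 h (rank 1418, pileup 107, fold enrichment 18.4), and wild-type wings at the top 16.1% at L3 and 43.1% at 24 h (pileup 57.3, fold enrichment 5.05). Neither genotype had a peak there at 44 h, so this larval opening was strong at 24 h in the mutant, weaker at 24 h in wild type and below calling in both by 44 h. The 135.1-kb region (chr2L:4584904-4585377), whose ChIP peak was among the weakest (top 89.7%), ranked at the top 34.5% in mutant 24 h wings and at the top 88.8% in wild-type 24 h wings. It had no L3 peak in either genotype and, at 44 h, none in the mutant and one at the top 88.8% in wild type. The ChIP peak there overlapped the mutant 24 h peak but neither of the wild-type peaks.

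**Figure D3:**
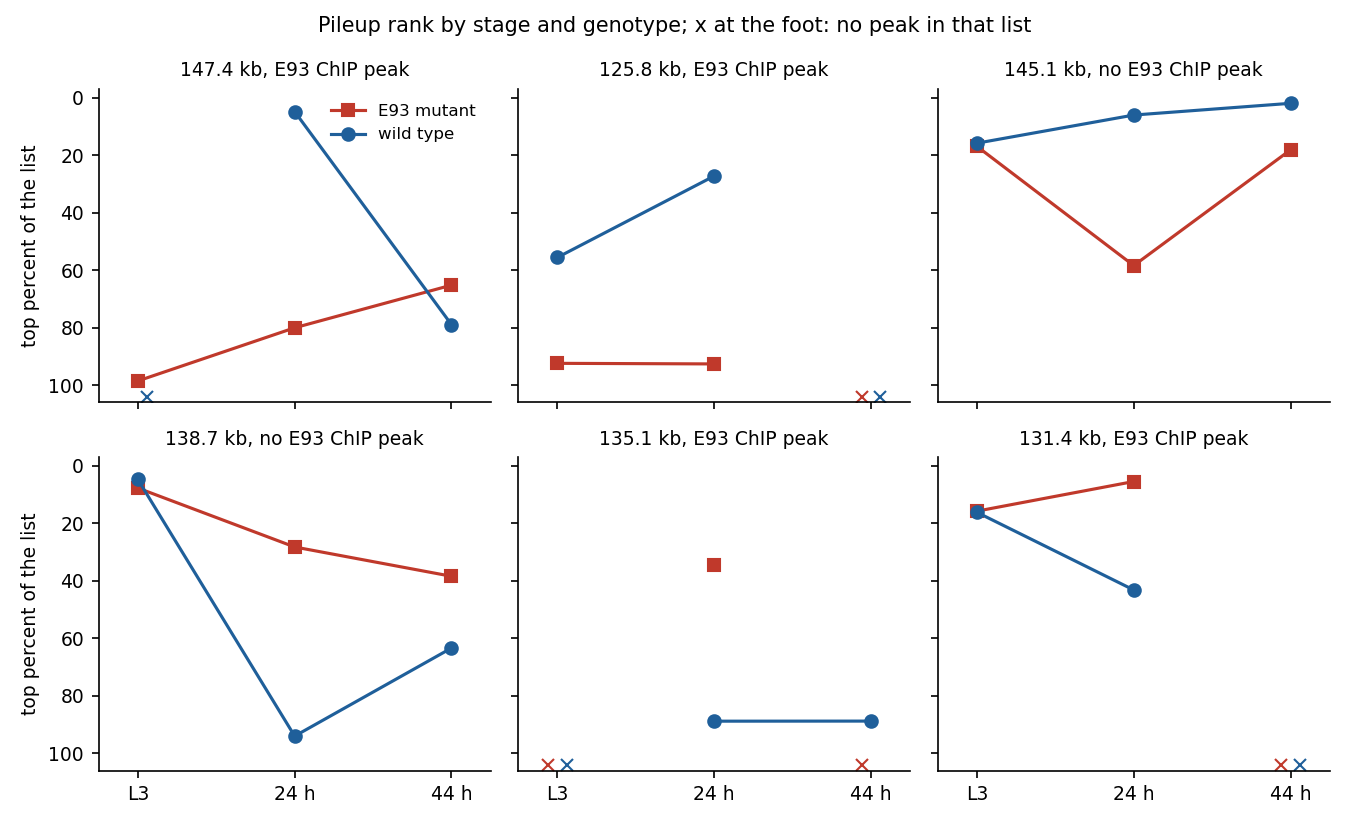
Pileup rank, as top percent of the list on a reversed axis so that strong peaks are high, at L3, 24 h and 44 h in E93 mutant (squares) and wild-type wings (circles), for the 3 named regions that ranked lowest in the mutant relative to wild type at 24 h (upper panels) and the 3 that ranked highest (lower panels). A cross marks a list without a peak, and each point is 1 pooled list. The 147.4-kb region stands at the top 80.1% in mutant and 4.88% in wild-type wings at 24 h, and the 138.7-kb region at the top 28.2% in mutant and 94.0% in wild-type wings. In the 138.7-kb region the 24 h peaks of the genotypes do not overlap.

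The remaining bound regions were mostly open throughout. Of the 14, 7 had a peak in all 7 lists, at 129.2, 133.6, 136.2, 142.0, 143.9, 150.1 and 164.3 kb. The 129.2-kb region (chr2L:4578392-4579956) held 3 ChIP peaks, the best at the top 62.4%, and ranked at the top 33.4%, 44.1% and 21.7% in mutant wings at L3, 24 h and 44 h and at the top 21.1%, 6.41% and 8.74% in wild-type wings. It was ranked lower in the mutant at all 3 stages. The mutant 24 h peak nearest the wild-type summit there stood at the top 75.8%. The 136.2-kb region (chr2L:4585640-4586787), with 2 ChIP peaks (best at the top 39.6%), was also ranked lower in the mutant throughout, at the top 46.6%, 31.1% and 47.6% against 29.0%, 17.2% and 29.1% in wild type. Of bound regions in the series with a peak in both genotypes, 16.0%, 48.1% and 51.8% ranked higher in the mutant at L3, 24 h and 44 h. A lower mutant rank at L3 was thus the rule.

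The 142.0-kb region (chr2L:4591494-4592573) was among the strongest openings of the locus in both genotypes. It ranked at the top 3.34%, 4.11% and 1.80% in mutant wings at L3, 24 h and 44 h (pileups of 114, 113 and 103) and at the top 1.85%, 8.76% and 6.08% in wild-type wings (158, 105 and 125), with a ChIP peak at the top 32.9%. The 150.1-kb region (chr2L:4599542-4600581) was ranked best at 44 h in both genotypes. Mutant wings ranked it at the top 18.3%, 8.62% and 1.96%, and wild-type wings at the top 11.4%, 27.3% and 0.865% (rank 248, the best of the window at that stage), with 2 ChIP peaks, the better at the top 29.0%. The 143.9-kb region (chr2L:4593628-4594222) held a ChIP peak at the top 94.8%, tied for the weakest of the window with the third one of the 129.2-kb region, and ranked at the top 82.9%, 39.8% and 41.0% in mutant wings and 55.6%, 49.5% and 16.9% in wild-type wings.

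By pileup, the 164.3-kb region (chr2L:4613881-4614811) was the strongest opening of the locus at L3 and 24 h in both genotypes, and at 44 h in the mutant. Its rank was 133, 52 and 94 in mutant wings at L3, 24 h and 44 h (top 0.471%, 0.198% and 0.413%) and 521, 47 and 457 in wild-type wings (top 1.32%, 0.158% and 1.59%), with a ChIP peak at the top 27.5%. The ChIP summit lay 379 bp from the nearest wild-type 24 h summit. Its place among wild-type pupal peaks depended on the measure: by fold enrichment over a local background of 16.0, higher than the common 10.6, it ranked at the top 12.7% at 24 h and 14.9% at 44 h in wild-type wings. The mutant 24 h value by fold enrichment stayed at the top 0.187%, so that by this measure the region ranked higher in the mutant. The mutant 24 h background there was 5.13, near the common 4.87 of its list. The 24 h summits lay at 164.489 kb in the mutant and 164.528 kb in wild type. The part that the unlike backgrounds play was not tested. Several regions stood above the 164.3-kb region by fold enrichment at wild-type 24 h, the 147.4-kb region highest at the top 1.82%. In mutant L3 wings the 142.0-kb region did so, at rank 616 against 965.

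In the 132.7-kb region (chr2L:4582471-4582968), with a ChIP peak at the top 33.6%, mutant wings had a peak at 44 h alone (top 30.9%), whereas wild-type wings had peaks at L3, 24 h and 44 h (top 43.3%, 55.2% and 60.3%). Its ChIP summit was 12 bp from the wild-type 24 h summit. It was with the 123.5-kb region 1 of the 2 bound regions without a mutant 24 h peak, and both wild-type 24 h peaks were in the lower-ranked part of their list.

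**Figure D4:**
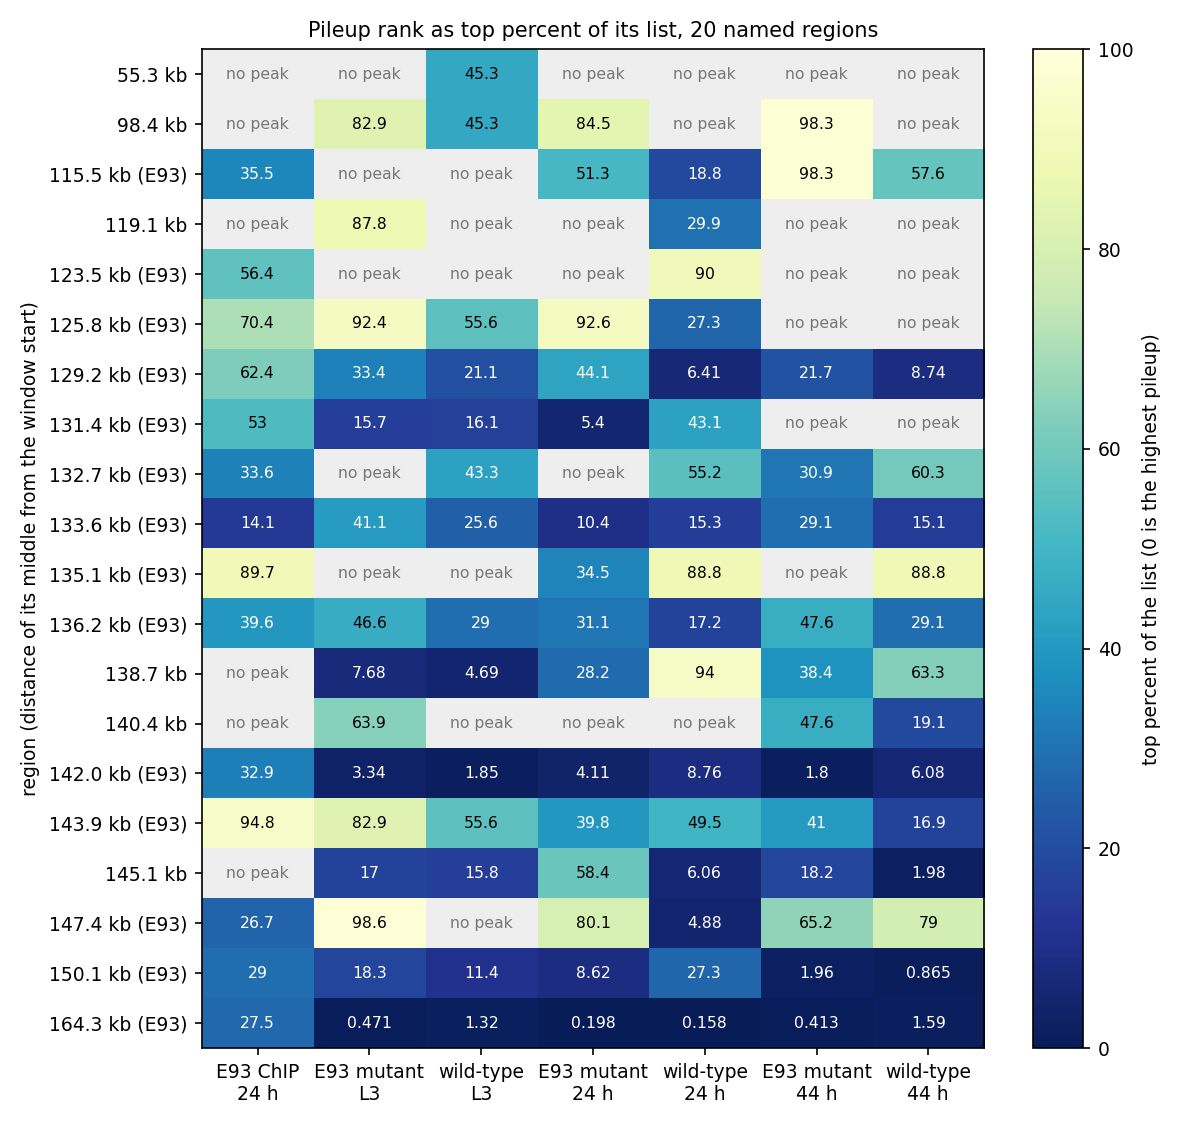
Pileup rank of the 20 named regions, as top percent of the list (dark is strong, grey is no peak), with 1 row per region in order along the window and 1 column per pooled list, mutant beside wild type at each stage. Regions marked E93 have a ChIP peak. The 142.0-kb and 164.3-kb rows are dark in all 6 FAIRE columns, whereas the 147.4-kb row is dark at wild-type 24 h only.

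Strong openings without a ChIP peak also differed between stages and genotypes. The 145.1-kb region (chr2L:4594782-4595353) ranked at the top 17.0%, 58.4% and 18.2% in mutant wings at L3, 24 h and 44 h and at the top 15.8%, 6.06% and 1.98% in wild-type wings. Its pileups were 64, 25 and 56 in the mutant and 79, 111 and 136 in wild type. The genotypes stood close at L3 and apart at 24 h, without an E93 peak called there.

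The 138.7-kb region (chr2L:4588157-4589302) was a strong larval opening, at the top 7.68% in mutant and 4.69% in wild-type wings at L3. At 24 h it stood at the top 28.2% in mutant wings (pileup 48) and at the top 94.0% in wild-type wings (pileup 26.6), and at 44 h at the top 38.4% in mutant and 63.3% in wild-type wings. The wild-type 24 h peak (chr2L:4589113-4589252) did not overlap the mutant one (chr2L:4588638-4588950). No wild-type pupal peak of the region covered the L3 summits. As a merged region it lost rank after L3 in both genotypes, in the mutant by less at 24 h, and again no E93 peak was called there.

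The strongest region with a wild-type peak at 24 h alone was the 119.1-kb region (chr2L:4568742-4569474), at the top 29.9% with a pileup of 73.5, and the mutant had a weak peak there at L3 only (top 87.8%). Its counterpart for 44 h was the 140.4-kb region (chr2L:4590156-4590696), with mutant peaks at the top 63.9% at L3 and 47.6% at 44 h and a wild-type peak at the top 19.1% at 44 h (pileup 99.0). Neither had a ChIP peak. The other regions of these classes were weaker: the median was the top 87.4% over the 11 with a 24 h peak only and 77.8% over the 8 with a 44 h peak only.

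Over all regions with a peak in both genotypes, shifts in rank at 24 h ran in both directions. Of 28 such regions, 15 ranked higher in the mutant and 13 in wild type (53.6% higher in the mutant, against 49.5% in the series), and the median difference of top percent, mutant minus wild type, was -1.37 points against 0.12 in the series. A shift of at least 25 points towards a stronger rank in the mutant was found in 4 of 28 (10.2% of the series) and towards a weaker rank in 7 of 28 (11.5%). The 4 were the 138.7-kb, 135.1-kb and 131.4-kb regions and an unbound one at 162.8 kb. In the 138.7-kb region the peaks compared do not overlap. The 7 were the 147.4-kb, 125.8-kb, 129.2-kb and 115.5-kb regions, all bound, and the unbound 145.1-kb, 114.1-kb and 7.9-kb regions. All 11 shifts were of at least 25 points when peaks were ranked by fold enrichment instead, and 26 of the 28 regions kept their direction, the exceptions being the 27.1-kb and 164.3-kb regions. The regions at 162.8, 114.1, 7.9 and 27.1 kb were singled out after their values were seen.

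A higher rank in the mutant was found in 21.1% of 38 regions at L3 (17.1% of the series) and 37.9% of 29 at 44 h (42.1%). At L3 no region of 38 was stronger in the mutant by 25 points (1.01% of the series) and 8 were weaker (13%). At 44 h, 3 of 29 were stronger in the mutant (8%) and 7 weaker (16%). Between wild-type stages, 2 of 32 regions were stronger by 25 points at 24 h than at L3 (5.92% of the series) and 7 weaker (27.3%), whereas 7 of 30 were stronger at 44 h than at 24 h (12.8%) and 5 weaker (12.1%). The rank shifts of the locus between genotypes rest on 1 pooled list each, and the part that depth plays in them was not tested.

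At the window edges, the first region inside on the low side (chr2L:4451743-4451971) had a wild-type L3 peak at the top 70.8%, and the last outside it (chr2L:4449835-4449959) one at the top 96.4%. The last region inside on the high side (chr2L:4619833-4620528) had peaks in 6 lists, the best at the top 47.3%, and the first beyond it (chr2L:4620643-4620878) had peaks in 3, the best at the top 28.2%.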

How the data were processed

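The authors pooled the FAIRE-seq or ChIP-seq replicates of a condition and deposited 1 peak table for each. Pileup in these deposited tables is a coverage signal taken at the summit. Fold enrichment is a ratio of pileup to local background made by the authors. The −log10 transformed p and q of a peak were also deposited. The control was deposited as mapped reads with a mapping score, which was not used to filter. The submitters' processing notes name build dm3, Bowtie2 2.2.8, SAMtools 1.2 and 1.3.1, Picard 2.2.4, bedtools 2.25.0 and MACS2. Settings are not given in the sources used here.

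Peaks overlapping the window were merged over all 7 lists and ranked by pileup in their whole list with Python 3.11.15, pandas 2.3.3 and scipy 1.17.1. Merging and overlaps were tested on simulated data. Local background was taken as (pileup + 1) / fold enrichment − 1. Depth was read from the smallest pileup step and the background most common in a list, since read totals per sample were not used here. Named regions are all those with a ChIP peak, the 3 best-ranked regions of each list, and the best-ranked region with a wild-type peak at 1 stage only, for each stage, ties included. The window and this rule were chosen with earlier results of these data known. The strongest 25% of a list and rank shifts of at least 25 points were chosen for comparison after seeing the data. Release 6 gene coordinates were not used. Control reads are on coordinates that reach further than any peak on 2R and 3L, so they were counted on 2L alone. RNA-seq samples were not analysed here.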

Additional observations from a re-analysis of the deposited data

How the results depend on the processing

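No paired analysis was possible because replicates were pooled before peak calling. Pooling also kept single replicates from being left out. Of the counts and shares of the locus, 116 alternative values stayed within 1.5 times the count or within the counting interval of the share, and 64 did not. Keeping peaks with a −log10 q of at least 10 in every list gave 7 ChIP peaks in the window, 17, 21 and 24 mutant and 20, 31 and 26 wild-type peaks at L3, 24 h and 44 h, and 40 merged regions, of which 7 were bound, 5 bound with a mutant 24 h peak, 12 open at all 3 wild-type stages, 3 closed after L3 and 1 closed but with a mutant 24 h peak. The shares were then 45.2% for wild-type 24 h peaks with an L3 peak, 85.0% for L3 with 24 h, 74.2% for 24 h with 44 h, 50.0% for 44 h with L3, 75.0% for L3 with 44 h, 94.1% for mutant L3 peaks with a wild-type peak, 85.0% for the reverse and 100% for ChIP peaks with a wild-type 24 h peak. Applied to the first list alone, the same limit gave 80.6% (24 h with L3), 95.0% (L3 with 24 h), 88.5% (44 h with 24 h), 83.9% (24 h with 44 h) and 90.0% (L3 with 44 h) in wild type. Between genotypes it gave 100% both ways at L3, 90.5% (mutant in wild type) and 74.2% (the reverse) at 24 h and 95.8% (mutant in wild type) at 44 h. For ChIP peaks it gave 100% with wild-type 24 h and with mutant 44 h, and 38.7% of wild-type 24 h peaks met a ChIP peak.

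Equal list sizes of 22786 peaks gave 33 mutant and 42 wild-type L3 peaks, 67 regions, 16 closed after L3 and 5 of them with a mutant 24 h peak. The shares were 61.9% for L3 with 24 h, 61.9% for L3 with 44 h, 59.5% for wild-type L3 peaks in the mutant and 80.6% for wild-type 44 h peaks in the mutant. Requiring the overlap to cover at least 50% of each of the peaks lowered the shares to 39.6% (24 h with L3), 21.5% (L3 with 24 h), 37.8% (44 h with L3) and 18.3% (L3 with 44 h) in wild type. Mutant peaks in wild type were then 55.6%, 42.5% and 51.3% at L3, 24 h and 44 h, and the reverse 32.3%, 34.0% and 44.4%. ChIP peaks were then open in 16.7%, 33.3% and 33.3% (mutant) and 33.3%, 44.4% and 22.2% (wild type), and 15.0% of mutant 24 h peaks were bound. With summits at most 250 bp apart, 64.1% of mutant 44 h peaks met a wild-type one, and 50.0% and 66.7% of ChIP peaks met wild-type L3 and 24 h peaks. Merging peaks at most 200 bp apart left 8 regions with a wild-type 24 h peak and none at L3. The counts of regions under these limits were chosen after seeing the data. The cause was not tested for any of them.

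Of the ranks of named regions, 172 alternative values stayed close and 34 did not, all on ranking by fold enrichment or −log10 p. The region at 136.2 kb stood at the top 65.7% of ChIP peaks by fold enrichment.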

Other observations

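The longest stretches of the window without a peak in any list were chr2L:4531882-4548069 (16.2 kb), chr2L:4601643-4610253 (8.61 kb) and chr2L:4548728-4553241 (4.51 kb). Genomic DNA control reads were 35.3, 13.1 and 99.0 per kb there, against 71.0 per kb over the window and 81.2 per kb over arm 2L. The first and second of these peak-free stretches were thus thinly covered in the control and the last was not. The peak-free stretch of 8.61 kb lies inside the E93-bound part of the locus, between the 150.1-kb and 164.3-kb regions. How much of the missing signal goes with low read coverage in the wing samples was not tested.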
